A study of Mus musculus with 12 samples.

Results

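The genes described here are the conjugation enzymes of mouse colon mucosa: the cytosolic glutathione transferases (Gst), the membrane-bound glutathione transferases (Mgst), the UDP-glucuronosyltransferases (Ugt) and the sulfotransferases (Sult). A gene belongs to the set by its symbol, with no threshold on a measured value, although the families were picked with earlier results of these data known. The rule found 64 probes of 49 genes (20 Gst, 3 Mgst, 14 Ugt and 12 Sult) among the 32970 genes and unnamed transcripts on the array. Of these, 46 were kept for testing (19 Gst, 3 Mgst, 12 Ugt and 12 Sult), because in 1 group or more a probe was called well above background in every mouse. Gstt4, Ugt2b1 and Ugt3a1 were not kept.

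The samples came from bone-marrow chimeras. All recipients were C57BL/6 wild-type (WT) mice that had been given C57BL/6 donor marrow, from a WT donor or from a donor without Muc1, a membrane mucin (knockout, KO), so the genotype differed in marrow-derived cells only. The 4 groups of 3 mice were treated chimeras with KO marrow, treated chimeras with WT marrow, untreated chimeras with KO marrow and untreated chimeras with WT marrow. Treated mice received azoxymethane (AOM, a colon carcinogen) at 12.5 mg/kg into the peritoneum. After 5 days they drank dextran sulfate sodium (DSS, which injures the colon epithelium) at 2% for 4 days, then water for 14 days. That cycle was given again, then DSS at 2.5% for 5 days, and the colons were taken 1 day later. RNA of the mucosa scraped from each colon was measured on 1-colour microarrays, with 1 array per mouse. A level below is the log2 probe signal minus the 75th percentile of its own array, so 0 lies at that percentile and negative levels lie under it. Because probes bind unequally, a level is compared between mice for 1 gene and never between genes. The labels do not give the age or sex of the mice, or how many host blood cells remained.

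Conjugation makes reactive or fat-soluble molecules water-soluble. Glutathione transferases add glutathione to electrophiles, UDP-glucuronosyltransferases add glucuronic acid from UDP-glucuronic acid, and sulfotransferases add sulfate from the donor PAPS. In the gut these enzymes are known chiefly from the absorptive epithelium, where they act on food-borne chemicals, bile acids, hormones and bacterial products, and efflux pumps then carry the conjugates out of the cell.

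Several arrays stood apart. The 75th percentile of the signal lay between 332 and 767.8 on 11 arrays and at 153.2 on treated WT-marrow mouse 3, and the share of gene probes above background ranged from 58.12% (untreated KO-marrow mouse 2) to 78.29%. The arrays sat on 3 slides. Slide 1 held all 3 untreated WT-marrow mice and untreated KO-marrow mouse 1. Slide 2 held mouse 3 of each treated group and untreated KO-marrow mice 2 and 3. Slide 3, scanned on another day, held treated mice 1 and 2 of both marrows. Treatment therefore varied within slide 2 only, and within KO marrow it could be compared there with 1 treated and 2 untreated mice. Values with the slide as a term in the model are given for the members and pathway genes named below that passed the test. Of those that did not pass, only some have such a value here. Counts with the slide as a term are given for the marker lists that moved. As for the labelled colon mucosa, all 11 epithelial and all 6 measured goblet cell markers were above background on every array of every group. Smooth muscle markers were high on treated WT-marrow mouse 2 and fat cell markers on untreated WT-marrow mouse 2. Their list medians there were 6.12 and 4.40, each gene's level being taken minus the mean of its 4 group means.

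With AOM+DSS, enzymes of the Gst, Ugt and Sult families fell, as did Mgst3 of the 3 Mgst, and no member rose (Gsta1 and Gstp3, described below, passed as higher in 1 or more alternative settings). Among the 34 members above background on every array of every group, 17 fell on the mean of both marrows and 0 rose (limma, adjusted p under 0.05), while 12.2% of the 17206 genes detected that widely fell and 8.26% rose. The 17 were 7 of 19 Gst, 1 of 3 Mgst, 4 of 5 Ugt and 5 of 7 Sult. The median log2 change was -0.66 over these 34 members and -0.09 over those 17206 genes. By family it was -0.50 for Gst, -0.21 for Mgst, -1.75 for Ugt and -0.78 for Sult. In 12 of the 34, all 6 treated mice lay below all 6 untreated mice, a pattern that 4.52% of the widely detected genes showed, and the opposite pattern was shown by 0 members and by 4.77% of those genes. Fewer cells of a type and less RNA per cell cannot be told apart in such bulk tissue.

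With the slide as a term, 5 of the 34 members passed the test on the mean of both marrows (Gstm6, Sult1a1, Sult1d1, Sult2b1 and Ugt2b35), all lower, against 2.6% of the widely detected genes. The median over the 34 was then -0.50, against 0.29 over the widely detected genes. By family it was -0.47 for Gst, 0.11 for Mgst, -0.85 for Ugt and -0.66 for Sult, so the Mgst median changed sign. Of the 17 members that fell, 15 kept a negative sign with the slide as a term, Gsto2 and Ugt3a2 being the exceptions. Another background correction, normexp, moved the median over all genes tested to 0.31, against -0.19 with the scanner's correction. With normexp 13 of the 46 kept members were called lower, against 5.32% of genes, and 0 higher. The family medians over all kept members were then -0.39 for Gst, -0.57 for Mgst, -0.12 for Ugt and -0.36 for Sult, below the median of all genes, although the Ugt median turned to 0.04 with WT marrow alone, where all genes were at 0.39.

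The other 12 kept members were above background on all 3 arrays of only 1 to 3 groups, and 7 of them (Sult1e1, Sult2a2, Sult3a1, Ugt1a9, Ugt2a1, Ugt2a3 and Ugt8a) only in untreated WT-marrow mice. A member kept only through the group in which it was high had to differ, so the count of these members is a description. Of these 12, 6 were called lower on the mean of both marrows (Sult2a2, Sult5a1, Ugt1a1, Ugt2b5, Ugt2b38 and Ugt8a), which brought the total to 23 of 46, against 13.5% of all 23756 genes tested. With the slide as a term none of the 12 passed the test and their median was 0.55, against 1.11 over all 6550 genes detected in fewer than 4 groups.

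**Figure D1:**
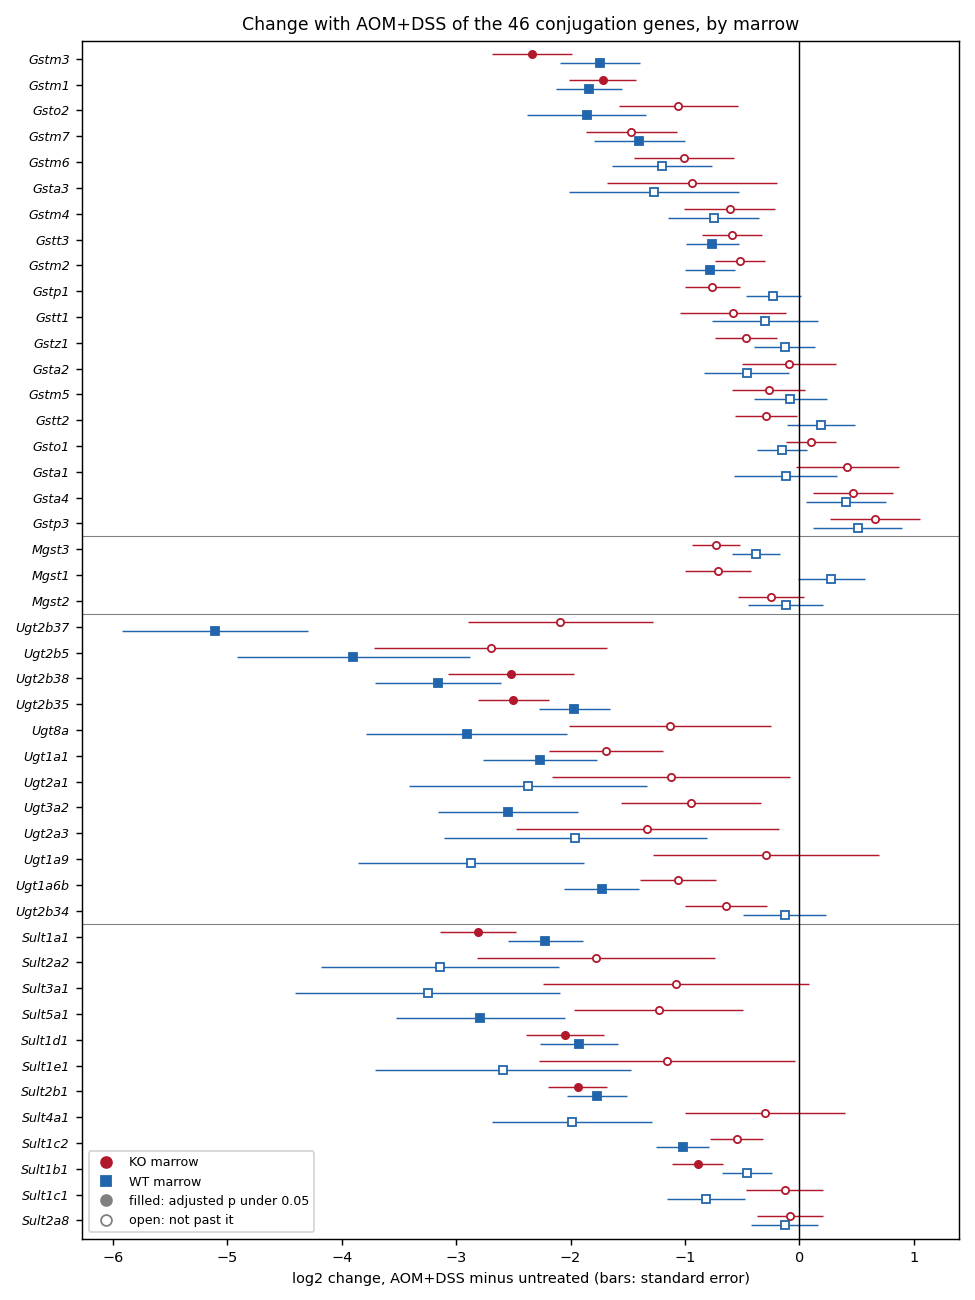
Log2 change with AOM+DSS (treated minus untreated) for each of the 46 kept members, ordered within family by the mean over both marrows; circles are KO marrow, squares WT marrow, bars the standard error, and filled symbols passed an adjusted p of 0.05. All 12 Ugt and all 12 Sult members lie left of 0 in both marrows, which not all of them do with normexp or with the slide as a term, and the few points right of 0 are Gst members and, with WT marrow, Mgst1.

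Among the mu-class glutathione transferases, Gstm3 and Gstm1 had the largest falls without the slide as a term, and Gstm6 with it. The 7 Gstm genes lie side by side on chromosome 3, in the RefSeq order Gstm5, Gstm7, Gstm6, Gstm3, Gstm2, Gstm1 and Gstm4, and 5 of the 7 were called lower. Gstm3, one of these cytosolic transferases, had levels of 3.69, 3.57 and 4.63 in treated KO-marrow mice and 3.84, 4.33 and 3.97 in treated WT-marrow mice, against 6.35, 6.06 and 6.50 in untreated KO-marrow mice and 5.37, 5.44 and 6.54 in untreated WT-marrow mice. All treated mice lay below all untreated mice. The log2 change was -2.34 ± 0.35 (SE) with KO marrow (adjusted p = 0.00261) and -1.74 ± 0.35 with WT marrow (adjusted p = 0.0126), and it was -2.02 (adjusted p = 0.0232) and -1.37 (adjusted p = 0.301) with the slide as a term. Gstm1, which conjugates a wide range of electrophiles, had levels of 5.52, 5.29 and 6.15 in treated KO-marrow mice and 5.45, 5.07 and 4.91 in treated WT-marrow mice, against 7.55, 7.23 and 7.33 in untreated KO-marrow mice and 6.86, 6.57 and 7.53 in untreated WT-marrow mice. The groups again did not overlap, and on the mean of both marrows Gstm1 was 3.43-fold lower (log2 change -1.78 ± 0.21, adjusted p = 0.000179; with the slide as a term -1.47, adjusted p = 0.0571).

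The other mu-class genes that fell did so by less, or from dimmer probes. Gstm7 had levels of -4.08, -3.53 and -4.03 in treated KO-marrow mice and -4.17, -3.75 and -3.89 in treated WT-marrow mice, against -2.60, -2.10 and -2.54 in untreated KO-marrow mice and -2.60, -2.84 and -2.18 in untreated WT-marrow mice. It was thus lower in every treated mouse, with a log2 change of -1.43 ± 0.28 (adjusted p = 0.00516), which turned to 0.16 with normexp. Gstm2 had levels of 3.67, 3.92 and 3.75 in treated KO-marrow mice and 3.78, 3.29 and 3.89 in treated WT-marrow mice, against 4.38, 4.39 and 4.14 in untreated KO-marrow mice and 4.63, 4.35 and 4.31 in untreated WT-marrow mice. That separation was complete but small, at -0.65 ± 0.15 (adjusted p = 0.0127). Gstm6 had levels of -1.05, -0.89 and -1.81 in treated KO-marrow mice and -1.58, -1.26 and -2.82 in treated WT-marrow mice, against -0.48, 0.12 and -0.37 in untreated KO-marrow mice and -1.03, -0.96 and -0.07 in untreated WT-marrow mice. Here the groups overlapped, since treated KO-marrow mouse 2 lay above untreated WT-marrow mice 1 and 2. The change was -1.11 ± 0.31 (adjusted p = 0.0277), and -2.09 ± 0.45 (adjusted p = 0.0244) with the slide as a term; with the slide, Gstm7 was at -1.67 (adjusted p = 0.0664) and Gstm2 at -0.47 (adjusted p = 0.31). Gstm4 and Gstm5 did not pass the test, at -0.68 ± 0.28 (adjusted p = 0.0969) and -0.17 ± 0.23 (adjusted p = 0.61). With the slide as a term they were at -1.46 (adjusted p = 0.0586) and -0.84 (adjusted p = 0.158), so Gstm4 then lay close to Gstm1, and differences between these genes were not tested. The mu-class genes are close paralogs, so part of each signal may come from a neighbour's RNA.

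The upstream sequences of Gstm3, which fell in both marrows, and Gstm5, which did not pass the test, are shown for this cluster, from RefSeq on build GRCm38.p6, read 5′ to 3′ on the gene's own strand, with 250 bases before and 50 after the annotated start. Gstm3 is at chr3:107969125-107969424 (minus strand) and Gstm5 at chr3:107895604-107895903 (plus strand). Capitals mark matches on either strand to 3 motifs: TGACNNNGC, the antioxidant response element core bound by NRF2, GCGTG, the core bound by the aryl hydrocarbon receptor, and TTATGNAA, the D-box. In Gstm5 a match to TGACNNNGC and a match to GCGTG overlap. Matching letters are a description of this window and show no binding.
Gstm3: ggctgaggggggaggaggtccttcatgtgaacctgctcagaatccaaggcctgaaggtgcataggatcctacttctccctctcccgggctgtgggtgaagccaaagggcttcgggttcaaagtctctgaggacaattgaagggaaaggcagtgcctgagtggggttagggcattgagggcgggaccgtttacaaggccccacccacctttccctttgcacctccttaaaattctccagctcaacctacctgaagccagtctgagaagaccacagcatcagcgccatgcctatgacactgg
Gstm5: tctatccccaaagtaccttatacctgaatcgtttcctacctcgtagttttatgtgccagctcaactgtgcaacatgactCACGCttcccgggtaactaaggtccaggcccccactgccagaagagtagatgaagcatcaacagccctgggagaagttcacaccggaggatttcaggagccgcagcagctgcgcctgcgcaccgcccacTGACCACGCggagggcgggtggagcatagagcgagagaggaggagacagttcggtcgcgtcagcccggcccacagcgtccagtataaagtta

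Over all 32851 RefSeq windows of this length, 12.4% held TGACNNNGC, 32.4% held GCGTG and 3.38% held TTATGNAA. Windows were found for 40 of the 46 kept members (52 windows in all, since some genes have several starts). Among those 52, 7.69% held TGACNNNGC, 25% held GCGTG and 3.85% held TTATGNAA. For the 23 members called lower on the mean of both marrows there were 28 windows of 20 genes, of which 1 held TGACNNNGC (Gstm7) and 8 held GCGTG.

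Of the remaining glutathione transferases, Gstt3, Gsto2 and Mgst3 fell. Gstt3, a theta-class enzyme, had levels of 4.23 and 4.47 in treated KO-marrow mice 2 and 3 (the spot of mouse 1 was left out as flagged) and 3.89, 3.93 and 4.53 in treated WT-marrow mice, against 4.98, 4.93 and 4.91 in untreated KO-marrow mice and 5.03, 4.64 and 4.97 in untreated WT-marrow mice. Every treated value lay below every untreated one, with a change of -0.67 ± 0.17 (adjusted p = 0.0197; -0.37 and adjusted p = 0.396 with the slide). Mgst3, a membrane enzyme with glutathione transferase and peroxidase activity, had levels of 4.44, 4.46 and 4.21 in treated KO-marrow mice and 4.29, 4.52 and 4.46 in treated WT-marrow mice, against 5.49, 4.82 and 4.99 in untreated KO-marrow mice and 4.84, 4.85 and 4.71 in untreated WT-marrow mice. It separated the groups by only -0.55 ± 0.15 (adjusted p = 0.0246; -0.22 and adjusted p = 0.574 with the slide). Gsto2, an omega-class enzyme whose human counterpart reduces dehydroascorbate, had levels of -2.01, -2.52 and -1.57 in treated KO-marrow mice and -2.56, -2.63 and -0.64 in treated WT-marrow mice, against -0.16, -1.30 and -1.46 in untreated KO-marrow mice and 0.04, -0.03 and -0.27 in untreated WT-marrow mice. Its levels followed the slide: the 4 mice of slide 1 lay between -0.27 and 0.04, the 4 of slide 2 between -1.57 and -0.64 and the 4 of slide 3 between -2.63 and -2.01. The change was -1.46 ± 0.37 (adjusted p = 0.0183) without the slide and 0.24 ± 0.44 (adjusted p = 0.737) with it.

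The remaining 12 Gst and 2 Mgst members did not pass the test on the mean of both marrows, with log2 changes between -1.10 (Gsta3) and 0.59 (Gstp3). Gstp1, the pi-class enzyme that is abundant in many epithelia, had levels of 6.95, 6.98 and 7.13 in treated KO-marrow mice and 7.14, 7.14 and 7.84 in treated WT-marrow mice, against 7.85, 7.66 and 7.84 in untreated KO-marrow mice and 7.65, 7.38 and 7.79 in untreated WT-marrow mice. Its change was -0.50 ± 0.17 (adjusted p = 0.0533, 95% interval -0.86 to -0.13), and -0.14 (adjusted p = 0.765) with the slide as a term. The alpha-class genes, whose products act on lipid peroxides, were at 0.15 ± 0.31 (Gsta1), -0.27 ± 0.27 (Gsta2), -1.10 ± 0.52 (Gsta3) and 0.44 ± 0.25 (Gsta4), with adjusted p between 0.139 and 0.756. With the slide as a term they were at -0.54 (Gsta1), -0.33 (Gsta2), -2.13 (Gsta3) and 0.61 (Gsta4). The adjusted p then lay between 0.158 and 0.688, and Gsta1 had changed sign. Gsta3 was lowest on treated WT-marrow mouse 3, at -0.60 against 2.71 to 3.00 on treated WT-marrow mice 1 and 2, and that array was the dim one. Without that mouse Gsta1 was called higher on the mean of both marrows, at 0.50 ± 0.15 (adjusted p = 0.0228), and with quantile normalization Gstp3, a pi-class gene, was called higher at 0.91 ± 0.30 (adjusted p = 0.0413). Gsto1, the other omega-class enzyme, was at -0.02 ± 0.15 (95% interval -0.36 to 0.31), while its neighbour Gsto2 was at -1.46 as given above.

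**Figure D2:**
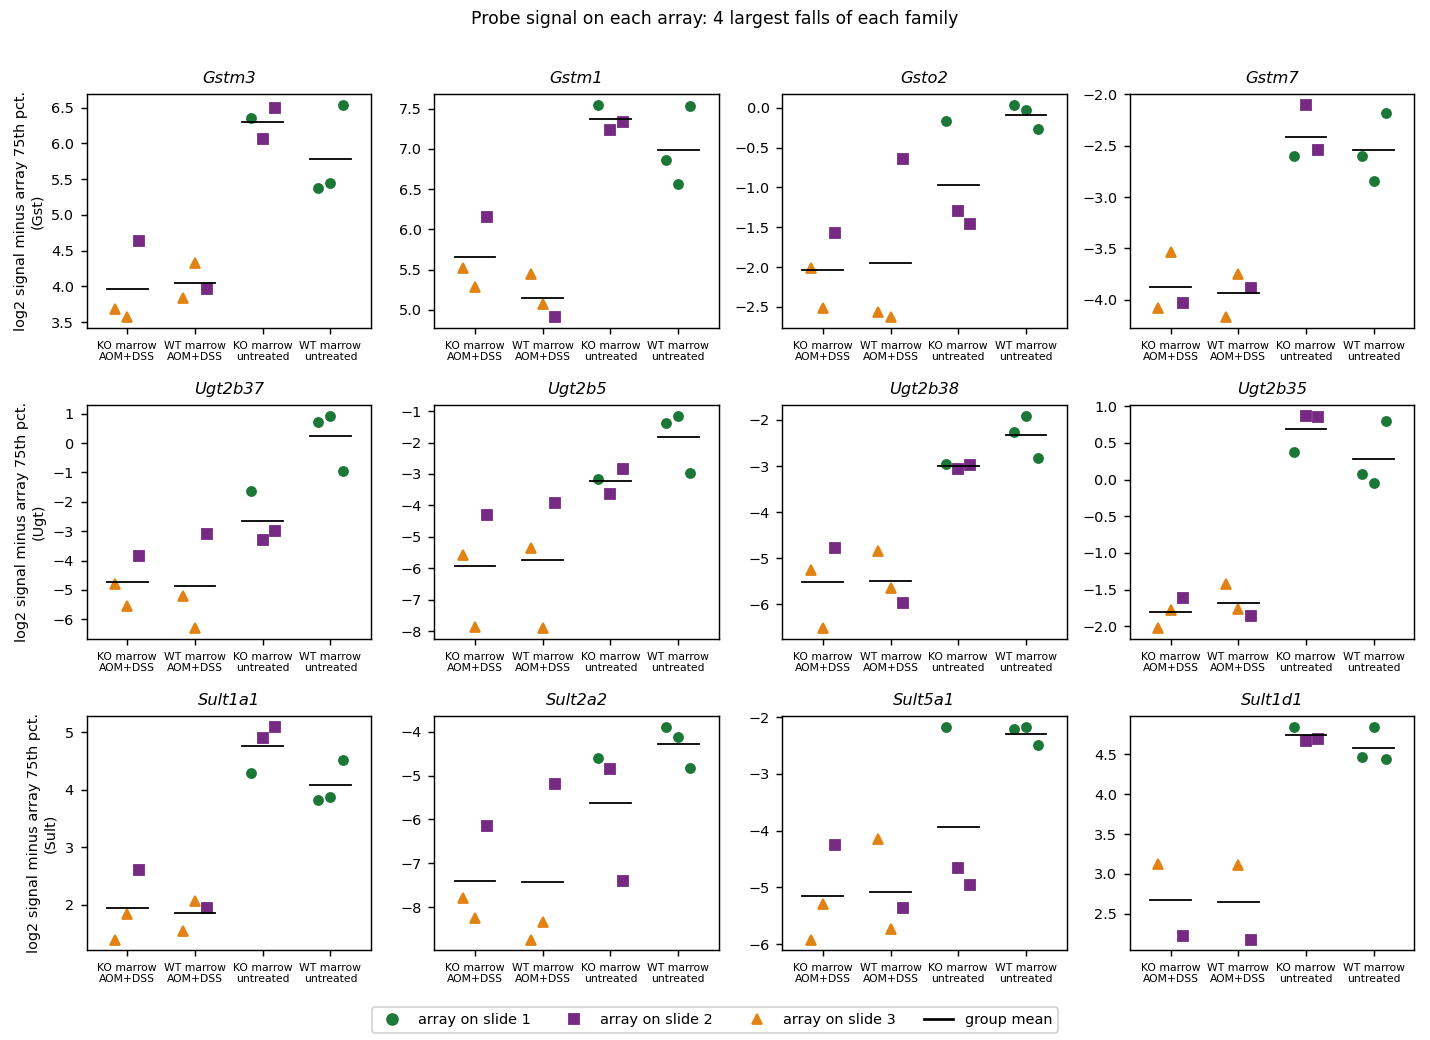
Level of the 4 largest called falls of the Gst, Ugt and Sult families on each array (log2 probe signal minus the array's 75th percentile), with KO marrow left of WT marrow and AOM+DSS left of untreated; symbols and colours mark the slide and lines the group means. Gstm1, Gstm3, Gstm7, Ugt2b35, Ugt2b38, Sult1a1 and Sult1d1 separate all treated from all untreated mice, within slide 2 as well. Ugt2b5 does so too, with only 2 treated KO-marrow arrays and 1 treated WT-marrow array above background. For Gsto2 and Sult5a1, untreated KO-marrow mouse 1 on slide 1 and mice 2 and 3 on slide 2 part from each other.

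The UDP-glucuronosyltransferases had the lowest median among members above background in every group, which rests on 5 genes. Over all kept members the Ugt and Sult medians were equal at -1.87, and with normexp the Ugt median was the highest of the 4 families. Ugt2b35, of the Ugt2b subfamily that acts on steroids and other lipophilic substrates, had levels of -2.03, -1.78 and -1.61 in treated KO-marrow mice and -1.43, -1.77 and -1.86 in treated WT-marrow mice, against 0.37, 0.87 and 0.85 in untreated KO-marrow mice and 0.08, -0.05 and 0.80 in untreated WT-marrow mice. The treated and untreated mice lay more than 1 log2 unit apart. It was 5.67-fold lower with KO marrow (log2 change -2.50 ± 0.31, adjusted p = 0.00093) and 3.91-fold lower with WT marrow (-1.97 ± 0.31, adjusted p = 0.00503), and with the slide as a term the mean over both marrows was -2.55 ± 0.40 (adjusted p = 0.00667). Its upstream window, at chr5:87000610-87000909 (plus strand), held none of the 3 motifs.
Ugt2b35: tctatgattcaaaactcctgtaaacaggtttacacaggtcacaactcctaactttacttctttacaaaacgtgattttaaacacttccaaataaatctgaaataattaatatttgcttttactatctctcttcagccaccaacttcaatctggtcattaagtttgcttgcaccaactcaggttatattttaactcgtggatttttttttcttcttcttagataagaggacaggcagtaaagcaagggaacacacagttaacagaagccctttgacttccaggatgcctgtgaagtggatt

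Ugt1a6b, of the Ugt1a group that acts on phenols, had levels of 5.98, 5.14 and 6.01 in treated KO-marrow mice and 5.76, 5.37 and 4.91 in treated WT-marrow mice, against 7.38, 6.44 and 6.48 in untreated KO-marrow mice and 7.19, 7.17 and 6.89 in untreated WT-marrow mice. Every treated mouse was lower, and the change was -1.40 ± 0.23 (adjusted p = 0.00191; -0.85 and adjusted p = 0.189 with the slide). Another, dimmer probe of Ugt1a6b gave -0.75. Ugt1a1, the bilirubin-conjugating enzyme, had levels of -3.30, -4.92 and -3.27 in treated KO-marrow mice and -4.14, -4.08 and -4.97 in treated WT-marrow mice, against -2.22, -1.79 and -2.41 in untreated KO-marrow mice and -1.90, -2.13 and -2.34 in untreated WT-marrow mice. It too was lower in every treated mouse and was above background on 2 of 3 arrays of treated WT-marrow mice. The change was -1.98 ± 0.36 (adjusted p = 0.00325), and -2.06 ± 0.69 (adjusted p = 0.089) with the slide, while with normexp it turned to 0.22 with WT marrow. The Ugt1a genes share their last exons, so a probe in those exons cannot tell them apart.

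Among the Ugt2b genes, which lie with Ugt2a1, Ugt2a3 and 3 Sult1 genes on chromosome 5, Ugt2b38 had levels of -5.26, -6.52 and -4.77 in treated KO-marrow mice and -4.84, -5.65 and -5.98 in treated WT-marrow mice, against -2.96, -3.06 and -2.98 in untreated KO-marrow mice and -2.26, -1.91 and -2.82 in untreated WT-marrow mice. It fell in both marrows, with a log2 change of -2.52 ± 0.55 with KO marrow (adjusted p = 0.0252) and -3.16 ± 0.55 with WT marrow (adjusted p = 0.00738), and -2.67 on the mean of both with the slide (adjusted p = 0.0521). With normexp the WT-marrow value turned to 0.20. It was above background on 2 of 3 arrays in each treated group. Ugt2b37 had levels of -4.80, -5.54 and -3.86 in treated KO-marrow mice and -5.21, -6.31 and -3.10 in treated WT-marrow mice, against -1.63, -3.30 and -3.00 in untreated KO-marrow mice and 0.73, 0.93 and -0.94 in untreated WT-marrow mice. Treated WT-marrow mouse 3 lay between the untreated KO-marrow mice, so the treated and untreated mice overlapped. The change was -5.11 ± 0.81 with WT marrow (adjusted p = 0.00503) and -2.09 ± 0.81 with KO marrow (adjusted p = 0.236), and -1.26 ± 0.77 on the mean of both with the slide (adjusted p = 0.293). Its other probe gave -3.30 with WT marrow and -2.93 with KO marrow.

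Ugt2b5 had levels of -5.58, -7.86 and -4.31 in treated KO-marrow mice and -5.34, -7.91 and -3.93 in treated WT-marrow mice, against -3.15, -3.63 and -2.85 in untreated KO-marrow mice and -1.37, -1.15 and -2.97 in untreated WT-marrow mice. All treated mice were lower, but only 2 treated KO-marrow arrays and 1 treated WT-marrow array were above background. The change was -3.30 ± 0.72 (adjusted p = 0.009), and -1.54 (adjusted p = 0.357) with the slide. Over the alternative settings it was as small as -0.13, and the adjusted p reached 0.832. Ugt2b34, from the same cluster, was at -0.38 ± 0.25 (adjusted p = 0.282).

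Ugt3a2, whose human counterpart uses sugars other than glucuronic acid, had levels of -4.14, -3.69 and -3.10 in treated KO-marrow mice and -3.84, -4.66 and -2.82 in treated WT-marrow mice, against -1.40, -3.22 and -3.46 in untreated KO-marrow mice and -0.91, -1.18 and -1.56 in untreated WT-marrow mice. Ugt8a, which makes galactosylceramide, had levels of -6.72, -6.59 and -6.15 in treated KO-marrow mice and -7.20, -6.57 and -4.27 in treated WT-marrow mice, against -3.57, -6.33 and -6.15 in untreated KO-marrow mice and -2.56, -2.92 and -3.82 in untreated WT-marrow mice. Ugt8a was above background on 1 of 3 arrays in each treated group and 2 of 3 untreated KO-marrow arrays, and it was kept only through untreated WT-marrow mice, so its value is a description. Both genes were highest in the 4 mice of slide 1, and untreated KO-marrow mice 2 and 3 lay near the treated mice. On the mean of both marrows Ugt3a2 was at -1.75 ± 0.43 (adjusted p = 0.0153) and Ugt8a at -2.02 ± 0.62 (adjusted p = 0.037), and with the slide as a term the values were 0.29 (adjusted p = 0.718) and 0.80 (adjusted p = 0.496). Ugt1a9, Ugt2a1 and Ugt2a3 did not pass the test in any treatment comparison. Ugt1a9 was not well above background on any treated array. Without the slide as a term it was at least 3.28-fold lower in treated than in untreated WT-marrow mice (adjusted p = 0.0671). The bound sets the mean of the untreated mice against the lowest signal above background on the treated arrays. The probe's own signal was used where that was higher. With the slide as a term the WT-marrow change of Ugt1a9 turned to 1.04 (adjusted p = 0.672), so the fall did not hold there.

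Among the sulfotransferases, Sult1a1, Sult1d1 and Sult2b1 fell in both marrows, and on the mean of both also with the slide as a term. Sult1a1, the main phenol sulfotransferase, had levels of 1.40, 1.85 and 2.60 in treated KO-marrow mice and 1.55, 2.07 and 1.94 in treated WT-marrow mice, against 4.29, 4.90 and 5.09 in untreated KO-marrow mice and 3.83, 3.88 and 4.52 in untreated WT-marrow mice. No treated mouse came within 1 log2 unit of an untreated one. It was 7.01-fold lower with KO marrow (log2 change -2.81 ± 0.33, adjusted p = 0.000725) and 4.67-fold lower with WT marrow (-2.22 ± 0.33, adjusted p = 0.00384), and -2.62 ± 0.38 on the mean of both with the slide (adjusted p = 0.00506). Sult1d1, a catecholamine sulfotransferase in mice, had levels of 3.12 and 2.23 in treated KO-marrow mice 1 and 3 and 3.11 and 2.18 in treated WT-marrow mice 2 and 3, against 4.84, 4.67 and 4.69 in untreated KO-marrow mice and 4.46, 4.84 and 4.44 in untreated WT-marrow mice. Flagged spots were left out for treated KO-marrow mouse 2 and treated WT-marrow mouse 1, so its change rests on 10 arrays. All measured treated mice were lower, with a log2 change of -1.99 ± 0.24 on the mean of both marrows (adjusted p = 0.000459) and of -2.34 ± 0.29 with the slide (adjusted p = 0.00392). Their upstream windows are at chr7:126676369-126676668 (minus strand) for Sult1a1, with none of the 3 motifs, and at chr5:87568957-87569256 (minus strand) for Sult1d1, with a match to GCGTG read on the other strand.
Sult1a1: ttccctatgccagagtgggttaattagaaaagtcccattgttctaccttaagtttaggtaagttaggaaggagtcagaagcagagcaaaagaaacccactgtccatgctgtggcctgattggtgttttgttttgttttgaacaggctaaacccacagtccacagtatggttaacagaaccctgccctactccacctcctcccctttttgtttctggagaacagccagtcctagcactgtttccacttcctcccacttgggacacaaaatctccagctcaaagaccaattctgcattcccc
Sult1d1: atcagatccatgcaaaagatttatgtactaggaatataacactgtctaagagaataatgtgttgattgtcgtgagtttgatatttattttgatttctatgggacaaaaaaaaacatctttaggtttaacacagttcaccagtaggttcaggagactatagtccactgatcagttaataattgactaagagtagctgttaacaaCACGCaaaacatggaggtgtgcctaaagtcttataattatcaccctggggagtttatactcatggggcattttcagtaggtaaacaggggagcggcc

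Sult2b1, which sulfates cholesterol and other sterols, had levels of -1.62, -1.78 and -1.81 in treated KO-marrow mice and -1.79, -1.72 and -1.92 in treated WT-marrow mice, against 0.09, 0.42 and 0.12 in untreated KO-marrow mice and -0.18, 0.15 and -0.09 in untreated WT-marrow mice. The groups lay far apart for their spread, with SDs of 0.10 to 0.18 within groups (n = 3 each). It was 3.62-fold lower on the mean of both marrows (-1.86 ± 0.18, adjusted p = 5.48e-05; -2.07 ± 0.33 and adjusted p = 0.00722 with the slide). Sult1b1, which sulfates thyroid hormones and phenols, had levels of 4.83, 4.58 and 4.75 in treated KO-marrow mice and 4.60, 5.32 and 4.94 in treated WT-marrow mice, against 5.62, 5.43 and 5.81 in untreated KO-marrow mice and 5.39, 5.44 and 5.40 in untreated WT-marrow mice. All treated mice were lower, treated WT-marrow mouse 2 narrowly so (5.32 against 5.39 in the lowest untreated mouse). The change passed the test with KO marrow (-0.89 ± 0.22, adjusted p = 0.0455) and not with WT marrow (-0.46 ± 0.22, adjusted p = 0.168). The KO-marrow result was not stable: it was weaker in 20 of 26 alternative settings, and its adjusted p reached 0.232. Sult1c2 had levels of 3.11, 2.73 and 3.43 in treated KO-marrow mice and 2.34, 2.17 and 2.20 in treated WT-marrow mice, against 3.74, 3.44 and 3.73 in untreated KO-marrow mice and 2.97, 3.26 and 3.53 in untreated WT-marrow mice. The treated and untreated groups were apart within each marrow, except that treated KO-marrow mouse 3 came close to untreated KO-marrow mouse 2. The change was -0.55 ± 0.23 with KO marrow (adjusted p = 0.294) and -1.02 ± 0.23 with WT marrow (adjusted p = 0.0208). On the mean of both marrows with the slide, Sult1b1 was at -0.66 (adjusted p = 0.189) and Sult1c2 at -0.53 (adjusted p = 0.288).

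The falls of the dim sulfotransferases followed the slides. Sult5a1 had levels of -5.92, -5.30 and -4.26 in treated KO-marrow mice and -4.15, -5.74 and -5.37 in treated WT-marrow mice, against -2.17, -4.66 and -4.95 in untreated KO-marrow mice and -2.20, -2.18 and -2.49 in untreated WT-marrow mice. The 4 mice of slide 1 were highest, and untreated KO-marrow mice 2 and 3 lay among the treated mice. Sult2a2, of the hydroxysteroid sulfotransferases, had levels of -7.79, -8.26 and -6.16 in treated KO-marrow mice and -8.74, -8.34 and -5.19 in treated WT-marrow mice, against -4.60, -4.85 and -7.41 in untreated KO-marrow mice and -3.89, -4.13 and -4.83 in untreated WT-marrow mice. It was above background on 1 array in each KO-marrow group and on no treated WT-marrow array. Without the slide as a term it was at least 4.15-fold lower in treated than in untreated WT-marrow mice (adjusted p = 0.0604). With the slide its WT-marrow change turned to 0.13 (adjusted p = 0.967). Because 1 group was at background and the gene was kept only through untreated WT-marrow mice, Sult2a2 has no measured size on the mean of both marrows, and its call there is a description. On the mean of both marrows Sult5a1 was at -2.01 ± 0.53 (adjusted p = 0.0199), and at 0.05 with the slide (adjusted p = 0.971). Sult3a1, not above background on any treated WT-marrow array, was at least 3.11-fold lower there without the slide as a term (adjusted p = 0.074). With the slide its WT-marrow change turned to 2.02 (adjusted p = 0.316). Sult1c1, Sult1e1, Sult2a8 and Sult4a1 did not pass the test in any treatment comparison.

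The members are described here by probe brightness and slide. Kept signs and the difference between untreated KO-marrow mice were not counted over all genes. The 22 members with a mean level at or above the 75th percentile held 10 that fell, and all 10 kept their sign with the slide as a term. In untreated KO-marrow mice, mouse 1 on slide 1 exceeded the mean of mice 2 and 3 on slide 2 by more than 1 log2 unit for 0 of these 22, with a median difference of 0.08. The 12 dimmer members that were above background in all 4 groups held 7 that fell, of which 5 kept their sign. That difference passed 1 log2 unit for 3 of these 12. Of all 17206 widely detected genes, bright and dim together, 12.2% fell. Of the 12 members detected in fewer groups, 6 were called lower, 3 of which kept their sign. Among those 12 the difference between untreated KO-marrow mice passed 1 log2 unit for 9, with a median of 2.44. Of all 6550 genes detected in fewer groups, 1094 were called lower. Over all 17206 widely detected genes and all 6550 others, the median treatment change was -0.09 and -0.76 without the slide and 0.29 and 1.11 with it.

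**Figure D3:**
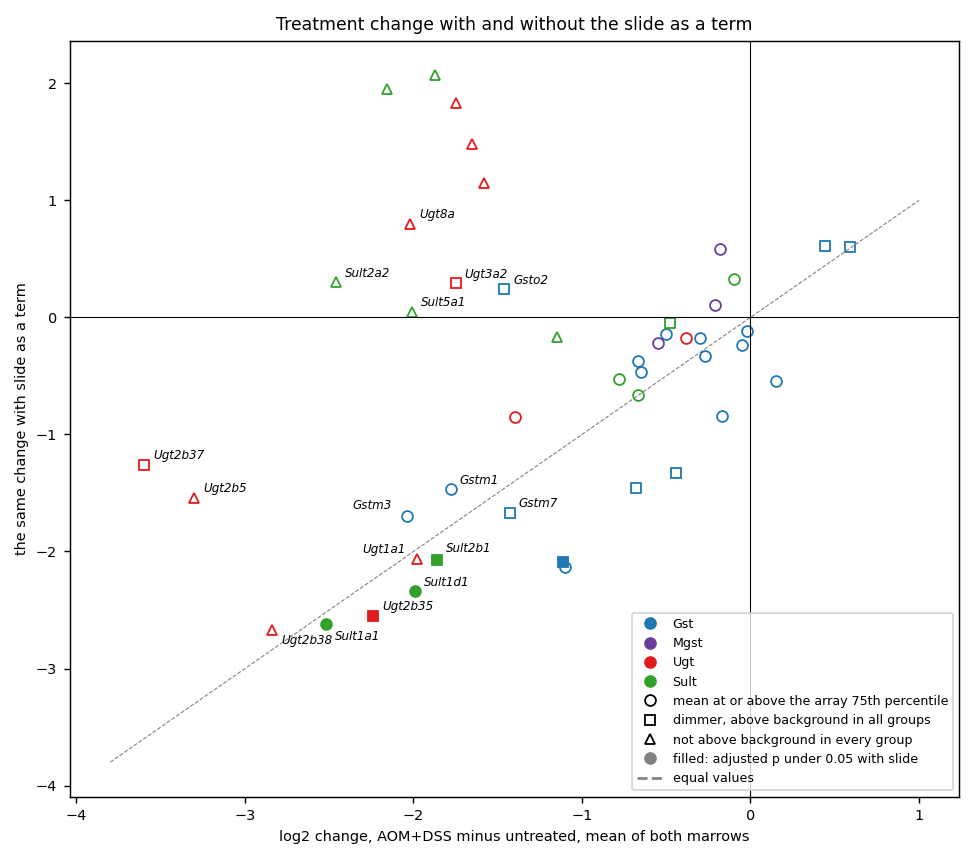
Log2 change with AOM+DSS on the mean of both marrows (horizontal) against the same change with the slide as a term (vertical) for the 46 kept members; colours mark families, symbols the brightness class, and filled symbols passed an adjusted p of 0.05 with the slide. Sult1a1, Sult1d1, Sult2b1 and Ugt2b35 lie near the dashed line of equal values, while triangles, the members not above background in every group, reach up to 2.07 on the vertical axis.

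The treatment changes of the 2 marrows were alike in direction. In 42 of 46 members they had the same sign, against 77.7% of all genes tested, and 7 were called lower in both (Gstm1, Gstm3, Sult1a1, Sult1d1, Sult2b1, Ugt2b35 and Ugt2b38), against 0.993% of genes. With KO marrow 8 members fell and 0 rose, against 1.3% and 1.85% of all genes tested. With WT marrow 19 fell and 0 rose, against 10.2% and 3.61%. These counts, like the 42 and the 7, include members kept through groups in which they were high, so they are a description. Among the 34 members above background in every group, 7 fell and 0 rose with KO marrow, against 281 and 305 of 17206 genes. With WT marrow 14 of the 34 fell and 0 rose, against 1394 and 729 of those genes. The WT-marrow count over all 46 members rested on single mice. It was 8, 10 and 25 without treated WT-marrow mouse 1, 2 or 3, against 2.11%, 5.38% and 32.2% of genes called in either direction. It was 10, 9 and 12 without untreated WT-marrow mouse 1, 2 or 3, against 2.05%, 2.2% and 8.04% of genes. A further 12 passed the threshold with WT marrow only and Sult1b1 with KO marrow only, but the difference between the marrows in the AOM+DSS effect was called for 0 members and 0% of all genes (2 members at an unadjusted p under 0.05, against 3.49% of genes). The largest such difference was that of Ugt2b37, at 3.02 ± 1.14 (adjusted p = 0.897), followed by unadjusted p by Mgst1 at -0.99 ± 0.42 and Ugt3a2 at 1.60 ± 0.86 (adjusted p = 0.897 for both). With the slide as a term 7 members passed with KO marrow (Gstm1, Gstm3, Gstm6, Sult1a1, Sult1d1, Sult2b1 and Ugt2b35) against 2.6% of genes, and only Sult1d1 passed with WT marrow, against 0.0674% of genes. Within slide 2 alone, where treated KO-marrow mouse 3 could be set against untreated KO-marrow mice 2 and 3, Sult1a1, Sult1d1, Sult2b1 and Ugt2b35 were called lower, against 4.15% of genes called in either direction, in a fit that took its spread from the groups with replicates.

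Donor marrow made no called difference to any member. Between treated mice, KO against WT marrow, 0 members and 0% of genes passed the test, with 1 member at an unadjusted p under 0.05 (0.972% of genes). That member was Sult1c2, at 0.85 ± 0.23 (unadjusted p = 0.0031, adjusted p = 1), with all 3 treated KO-marrow mice above all 3 treated WT-marrow mice in the levels given above. Within slide 3 no member passed, and within slide 2 Gsta1 and Gsta3 did (2.35% of genes), in a comparison of treated KO-marrow mouse 3 with the dim array of treated WT-marrow mouse 3. Mgst1, a membrane transferase, was at -0.52 ± 0.29 and Gstm1 at 0.51 ± 0.29 (adjusted p = 1 for both). Between untreated mice, again 0 members and 0% of genes passed, and 5 members had an unadjusted p under 0.05 (12.3% of genes), all lower with KO marrow. The smallest p belonged to Ugt2b37 (-2.88 ± 0.81), Ugt8a (-2.25 ± 0.88) and Ugt3a2 (-1.48 ± 0.61), each with an adjusted p of 0.404. Within slide 1, where untreated KO-marrow mouse 1 could be set against the 3 untreated WT-marrow mice, no member was called and the median difference was 0.11 over the members and 0.06 over all genes. The untreated marrow comparison without that mouse sets slide 2 against slide 1, and it called 6 members lower (7.02% of genes in either direction).

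Of the genes around the sugar donor, Ugdh, which makes UDP-glucuronic acid, had levels of 3.98, 3.80 and 4.66 in treated KO-marrow mice and 4.12, 3.98 and 4.39 in treated WT-marrow mice, against 6.22, 6.46 and 6.39 in untreated KO-marrow mice and 5.99, 5.81 and 6.14 in untreated WT-marrow mice. All treated mice were more than 1 log2 unit lower, and the change was -2.01 ± 0.17 (adjusted p = 2.53e-05; -1.78 and adjusted p = 0.00549 with the slide). Pgm2, a phosphoglucomutase, was at -0.50 ± 0.16 (adjusted p = 0.0478; -0.44 and adjusted p = 0.379 with the slide). Gusb, the lysosomal enzyme that cleaves glucuronides, rose by 0.60 ± 0.14 (adjusted p = 0.0125; 0.65 and adjusted p = 0.15 with the slide). In all, 2 of the 7 genes of this list fell and 1 rose, while 13.5% of all genes tested fell and 7.55% rose, with a list median of -0.30 against -0.19 over all genes. Only Ugdh passed with the slide.

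For sulfate, Slc26a2, a sulfate transporter, had levels of 2.72, 2.36 and 2.77 in treated KO-marrow mice and 2.17, 2.69 and 2.94 in treated WT-marrow mice, against 4.72, 4.78 and 4.91 in untreated KO-marrow mice and 4.10, 3.44 and 4.22 in untreated WT-marrow mice. It was lower in every treated mouse, at -1.75 ± 0.19 (adjusted p = 0.000101; -1.59 and adjusted p = 0.0262 with the slide). Papss1, which makes PAPS, fell by 0.89 on the log2 scale (-0.89 ± 0.20, adjusted p = 0.0105; -0.55 and adjusted p = 0.226 with the slide) and Papss2 was at -0.67 ± 0.28 (adjusted p = 0.0997; -1.63 and adjusted p = 0.0481 with the slide). Sumf1, which activates sulfatases, rose by 0.63 ± 0.16 (adjusted p = 0.0196; 0.58 and adjusted p = 0.253 with the slide). Slc26a2, Papss1 and Sumf1 were the 2 falls and 1 rise among the 9 measured genes of that list, against 13.5% and 7.55% of all genes tested.

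For glutathione, 5 of 14 genes fell and 1 rose, while 13.5% of all genes tested fell and 7.55% rose. Dpep1, a dipeptidase that trims glutathione conjugates at the cell surface, was at -2.47 ± 0.59 (adjusted p = 0.0141). Cbs and Cth, which make cysteine from homocysteine, were at -1.29 ± 0.25 (adjusted p = 0.00489) and -1.11 ± 0.17 (adjusted p = 0.00116). Oplah, which opens 5-oxoproline in the glutathione cycle, was at -1.07 ± 0.18 (adjusted p = 0.00205). With the slide, Cbs (-2.03, adjusted p = 0.0215) and Oplah (-1.26, adjusted p = 0.0474) still passed, while Dpep1 was at -1.10 (adjusted p = 0.434) and Cth at -0.81 (adjusted p = 0.0841). Of the 6 export pumps, Abcc2, the apical pump for glutathione and glucuronide conjugates, was at -2.70 ± 0.45 (adjusted p = 0.00189; -3.12 and adjusted p = 0.0477 with the slide). It had levels of -5.98, -6.67 and -5.43 in treated KO-marrow mice and -5.96, -5.49 and -6.75 in treated WT-marrow mice, against -3.51, -3.15 and -2.75 in untreated KO-marrow mice and -4.72, -2.89 and -3.06 in untreated WT-marrow mice. The other 5 pumps, Abcg2 among them at -0.09 ± 0.18, did not pass the test.

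Among 18 receptors and factors known to act on conjugation genes, 3 fell and 2 rose, shares near those of all genes given above. Ppara, the fatty acid receptor, was at -1.55 ± 0.24 (adjusted p = 0.00131), Vdr, the vitamin D receptor, at -1.14 ± 0.20 (adjusted p = 0.00299), Ahrr, the repressor of the aryl hydrocarbon receptor, at 1.15 ± 0.38 (adjusted p = 0.0489) and Mafg, a partner of NRF2, at 0.76 ± 0.23 (adjusted p = 0.0399). Hnf4a, an epithelial factor, fell by 0.49 on the log2 scale (adjusted p = 0.0432). With the slide as a term, Ahrr alone of these 5 passed (2.22, adjusted p = 0.0459), while Ppara was at -1.48 (adjusted p = 0.0563), Vdr at -0.95 (adjusted p = 0.0553), Hnf4a at -0.48 (adjusted p = 0.27) and Mafg at -0.05 (adjusted p = 0.952). Cdx1, an intestinal factor named after its values were seen, passed only with the slide (-2.57, adjusted p = 0.00975, against -0.33 and adjusted p = 0.652 without it). Of 6 target genes of NRF2 or the aryl hydrocarbon receptor outside the families, Hmox1 (1.20 ± 0.24, adjusted p = 0.00617) and Txnrd1 (0.85 ± 0.23, adjusted p = 0.0218) rose and Nqo1 fell (-0.93 ± 0.18, adjusted p = 0.00588). With the slide Hmox1 was at 2.22 (adjusted p = 0.00579), Txnrd1 at 1.69 (adjusted p = 0.00792) and Nqo1 at -0.65 (adjusted p = 0.22).

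**Figure D4:**
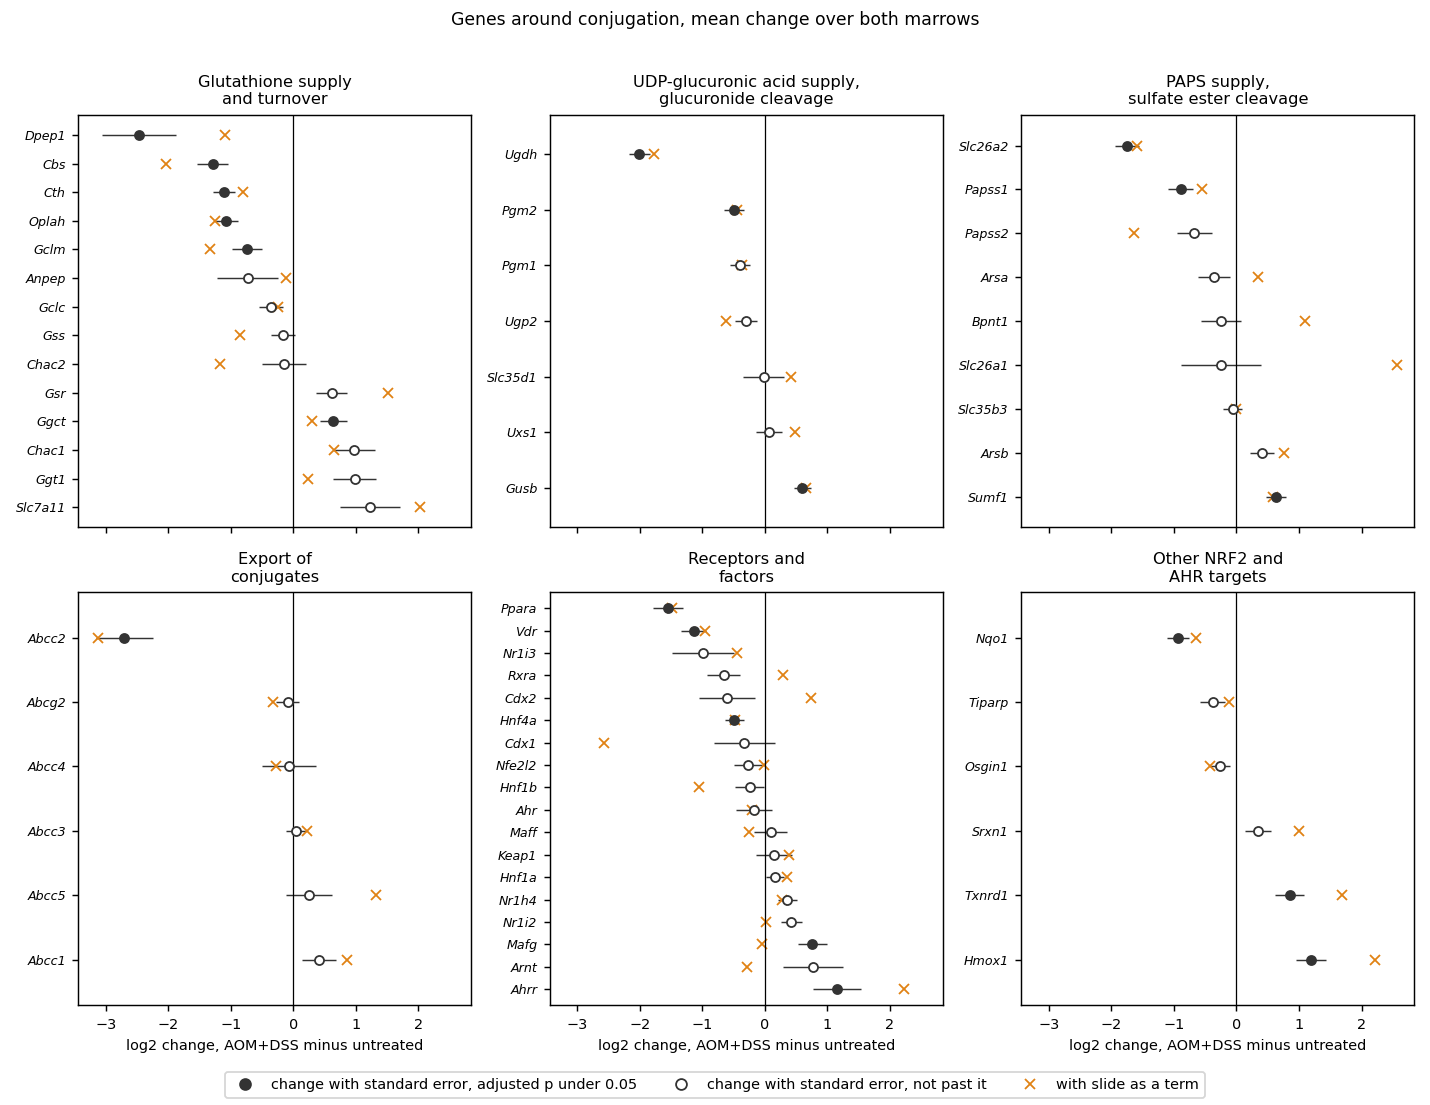
Log2 change with AOM+DSS on the mean of both marrows for the genes around conjugation, in 6 lists; circles with standard errors are the change, filled where the adjusted p was under 0.05, and crosses the change with the slide as a term. Ugdh (-2.01), Slc26a2 (-1.75) and Abcc2 (-2.70) are the lowest of their lists, and their crosses lie close by.

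Some cell markers moved with the treatment as well. Of all genes tested, 13.5% fell and 7.55% rose, and with the slide as a term 6.21% passed in either direction. Of 9 markers of surface colonocytes, the absorptive cells, 7 fell and 0 rose, with a list median of -1.73 and a summed level of 7.97 to 9.08 in treated KO-marrow mice and 7.97 to 8.73 in treated WT-marrow mice, against 9.89 to 10.29 in untreated KO-marrow mice and 9.76 to 10.49 in untreated WT-marrow mice. The 11 general epithelial markers held 0 that passed the test, with a median of -0.06. All 7 measured neutrophil markers rose (median 5.64), as did 5 of 8 general leukocyte markers (median 1.50) and 5 of 6 fibroblast markers (median 2.44). The summed neutrophil level was 3.45 to 5.74 in treated KO-marrow mice and 5.61 to 6.96 in treated WT-marrow mice, against -2.78 to -2.07 in untreated KO-marrow mice and -2.67 to -1.10 in untreated WT-marrow mice. Of the other lists, 3 of 5 tuft cell markers fell (median -1.27), 4 of 7 proliferation genes rose (median 0.80), 3 of 6 hepatocyte markers fell and 1 rose, 1 of 6 squamous markers fell and 1 rose, and the 6 goblet, 5 smooth muscle, 4 fat cell and 5 enteric glia and neuron markers held 0 that passed. With the slide as a term, 3 surface colonocyte, 7 neutrophil, 4 leukocyte, 1 fibroblast, 1 tuft cell, 2 hepatocyte, 1 squamous, 1 smooth muscle and 0 proliferation markers passed, and the surface colonocyte median was -1.38. The part of these markers in the fall of the conjugation enzymes was not tested.

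The authors' deposited table of selected probes, whose log2 group means matched the signal minus the probe's median over the 12 arrays, a centre the files do not name, held 17 probes of 15 members. For Sult1a1 the listed values are -1.25 (treated, KO marrow) and -1.34 (treated, WT marrow), against 1.55 (untreated, KO marrow) and 0.86 (untreated, WT marrow). In the authors' deposited table the listed members include Gstm1, Gstm3, Gstm6, Gstm7, Sult1d1, Sult2b1, Ugt1a1, Ugt2b35, Ugt2b37 and Ugt2b38. They also include Gsta3 and Mgst1, which did not pass the test here, where a brighter probe than the listed one stood for each gene. On the mean of both marrows the listed probes changed by -1.02 (Gsta3) and -0.73 (Mgst1). The probes that stood for the genes changed by -1.10 and -0.21. The probe of Ugt2b1 and the listed probe of Gsto2 were dropped here, each being above background on 3 arrays. All 17 probes have lower values in both treated groups than in either untreated group. The same holds for 47.5% of the 2506 probes in the authors' deposited table, which its authors had selected as differentially expressed.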

How the data were processed

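RNA from the colon mucosa of 12 chimeric mice, each frozen separately per the labels' protocols, was measured on 1-colour Agilent arrays with 1 array per mouse. The deposited values are spot intensities, background-corrected by the scanner software (Feature Extraction) and not scaled between arrays, per the file headers. The authors' deposited table gives log2 group means relative to a per-probe centre that the files do not name. It matched the group means minus the median over the 12 arrays, with r of 0.995 to 0.998 across probes.

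Here each array's log2 intensity was set to its 75th percentile. Spots with an outlier flag were left out. Probes that no group showed well above background in all of its 3 mice were dropped, and the brightest kept probe stood for its gene. Gene symbols came from RefSeq by accession. The 4 group means were fitted with limma 3.58.1 (lmFit and eBayes with a trend, R 4.3.3) on all 23756 genes kept, two-sided, with Benjamini-Hochberg adjustment over all of them, a threshold of 0.05, 8 residual degrees of freedom and a prior of 4.9. The number of arrays limits the precision. The code was tested on simulated data.

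The alternatives were another background correction (normexp with an offset of 50 on the median spot and background signals, the columns at hand), quantile normalization, other filters and probe rules, slide, scan day or replicate number as a block, only the groups compared, and each array left out. After the data were seen, the treatment of flagged spots, the slide as a random block and fits within a slide were added. So was the removal of both arrays with the fewest probes above background (treated WT-marrow mouse 3 and untreated KO-marrow mouse 2). The labels do not say that a replicate number marks a shared litter or day. Deviations of same-numbered treated mice of both marrows correlated at 0.42, 0.31 and 0.51. Those mice also share slides, so a pairing by number cannot be told apart from the slide. In the other comparisons at least 1 pair was negative. Up to 8 called members of a family (4 for Mgst) were given by array, ranked by the mean change over both marrows, with up to 4 called genes of each pathway list, and the 3 smallest p-values where a marrow comparison called fewer than 3 members. Pathway values by array, members that did not pass and those called in 1 or more alternative settings were added after their values were seen. The members and gene lists were chosen with earlier results of these data known.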

Additional observations from a re-analysis of the deposited data

How the results depend on the processing

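No member called in a treatment comparison was called in the opposite direction under an alternative. The counts of called members stayed within 1.5 times in 135 alternative counts, were smaller in 15 and larger in 2. With WT marrow 19 members were called with AOM+DSS, and 13.8% of all genes. The count was 7 with normexp (3.6% of genes), 1 with the slide block (0.535%) and 12 with the scan day block (9.99%). It was 12 with only the groups compared (5.58%) and 4 with the slide as a random block (0.745%). With 1 array left out it was 8 to 25, while 2.05% to 32.2% of genes were called. With KO marrow the count was 8 (3.15% of genes), against 4 within slide 2 (4.15%). With 1 array left out it was 6 to 10, while 1.06% to 5.31% of genes were called. On the mean of both marrows the count was 23 (21% of genes), against 13 with normexp (10.1%) and 5 with the slide block (6.21%). It was 14 with the scan day block (15.8%) and 11 with the random block (5.21%). With 1 array left out it was 19 to 30, while 11.7% to 37.6% of genes were called. With the replicate block the counts were 15 with WT marrow (9.8% of genes), 7 with KO marrow (2.99%) and 22 on the mean of both (19%). They were 0 for the 3 comparisons of the marrows, so the block moved no count by over 1.5 times. Between treated marrows, 2 members (Gsta1 and Gsta3, 2.35% of genes) were called within slide 2, where 1 KO-marrow array was set against the dim WT-marrow array. Between untreated marrows the count was 0 to 6 with 1 array left out, and 6 without untreated KO-marrow mouse 1 (7.02% of genes).

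Of 69 treatment changes of the 23 named members, 49 kept their sign in every setting, although some of these became very small. On the mean of both marrows, Ugt2b38 was as small as -0.05 in a setting, Ugt1a1 as small as -0.11 and Ugt2b5 as small as -0.13. The changes that did not keep their sign turned positive, none past the threshold. With the slide block these were Gsto2 (0.24 with WT marrow, 0.23 with KO marrow and 0.24 on the mean), Ugt8a (0.79, 0.80 and 0.80), Ugt3a2 (0.14, 0.45 and 0.29), Sult2a2 (0.13, 0.47 and 0.30), Sult5a1 (0.15 with WT marrow and 0.05 on the mean) and Mgst3 (0.15 with WT marrow). With normexp they were Ugt8a (0.47, 0.32 and 0.39), Sult2a2 (1.01, 0.39 and 0.70), Sult5a1 (0.22, 0.04 and 0.13), Gstm7 (0.48 with WT marrow and 0.16 on the mean), Ugt2b38 (0.20 with WT marrow) and Ugt1a1 (0.22 with WT marrow). Within slide 2, with KO marrow, they were Ugt8a (0.09), Ugt3a2 (0.24) and Sult5a1 (0.55). The cause was not tested. Dim probes limit the Ugt and Sult results, and no fit separates treatment from slide with WT marrow except through the slide term.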
